A study of Mus musculus with 14 samples.

Results

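The 10 genes described here mark macrophages or are used to describe their activation state: Csf1r, Adgre1, Cd68, Cd14, Itgam, Mrc1, Msr1, Chil3, Lyz2 and Slamf8. They were taken by name from the probes of the arrays, where Adgre1 is written Emr1, Chil3 is written Chi3l3 and Lyz2 is written Lyz or Lyzs. The names matched 18 probes, and all 10 genes were among the 17031 genes kept after the filter on dim probes. RNA came from tumours of B16F10, a mouse melanoma line, grown in C57BL/6 mice and hybridised to 14 one-colour arrays. The arms were CTL with anti-IFNg, CTL with control Rat IgG, CTL alone, and untreated. CTLs are cytotoxic T lymphocytes, here CD90.1+ cells specific for the melanocyte protein gp100 that had been activated in vitro and were given to mice that already bore tumours. The antibodies were injected on days 0 and 2 after transfer. The antibody and IgG arms each have arrays of days 3, 5 and 7 with RNA of 3 pooled tumours, and the CTL and untreated arms have arrays of days 1, 3, 5 and 7 with RNA of 4 pooled tumours. The labels give no age of the mice and describe no sorted cells, so each array measures whole tumour, including whatever leukocytes of the host it held. In whole tumour, fewer cells of a type and less RNA per cell cannot be told apart.

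Macrophages arise from blood monocytes and from precursors seeded in tissue, and depend on signalling through the receptor that Csf1r encodes. Interferon gamma, released by T cells and natural killer cells, drives the state called classical activation, with chemokines, antigen presentation and killing of microbes. The cytokines IL-4 and IL-13 drive alternative activation, for which Mrc1, Chil3 and Arg1 are standard markers in the mouse. Macrophages of tumours often carry marks of both.

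Levels below are log2 signals relative to the 75th percentile of the same array. Every value is from 1 array of pooled tumours, so n counts days, and the p-values measure how far same-day differences varied from day to day, not the spread between mice. Between 48.9% and 59.7% of spots were well above background on an array, and the 75th percentile of the signal ranged from 301 to 536. Summed melanocyte markers lay between 1250 and 1780 times the 75th percentile over the 12 arrays of days 3, 5 and 7, with no gene of 6 called in any comparison. Each slide held the arrays of 1 day, and each arm had the same position on every slide, so arm and position cannot be told apart. Probe positions below are given in mm8, the build named in the array files, and no exon annotation of it was used here.

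The genes that passed in both of the main comparisons, 7 of 10, went in opposite directions in them. How many of all genes passed in both, and in which directions, is not given here, so the reversal cannot be read as particular to the 10. In CTL tumours against untreated tumours over days 3, 5 and 7, 8 of the 10 genes rose, Chil3 fell and Mrc1 did not pass the test (limma, Benjamini-Hochberg over all genes, threshold 0.05). Itgam is among the 8 and among the 6 below, but its probe was bright enough for the filter only in CTL and IgG tumours, so that its calls follow in part from the filter; without it the counts are 7 and 5. Of all genes tested, 31.5% were called in that comparison, 10.1% higher and 21.4% lower. The median change was 2.07 (log2) for the 10 genes and -0.10 over all genes. In CTL with anti-IFNg tumours against CTL with IgG tumours, 6 genes were lower, Chil3 was higher, and Cd68, Lyz2 and Mrc1 did not pass. There, 12.5% of all genes were called, 6.61% higher and 5.93% lower, and the medians were -1.27 for the 10 genes and 0.06 over all genes. The share of higher genes among all calls was 32.1% in the first comparison and 52.7% in the second, but 45% and 21.7% with normexp background correction. Without day 5, 4 of the 10 genes passed in the first comparison, where 660 of 17031 genes were called, and 0 in the second, where 50 were called, and without day 7 the second had 4. With all 14 arrays in an additive fit, 6 of the 10 genes passed in the first comparison, where 1837 genes in all were called, and 0 in the second, where 2 were called.

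**Figure D1:**
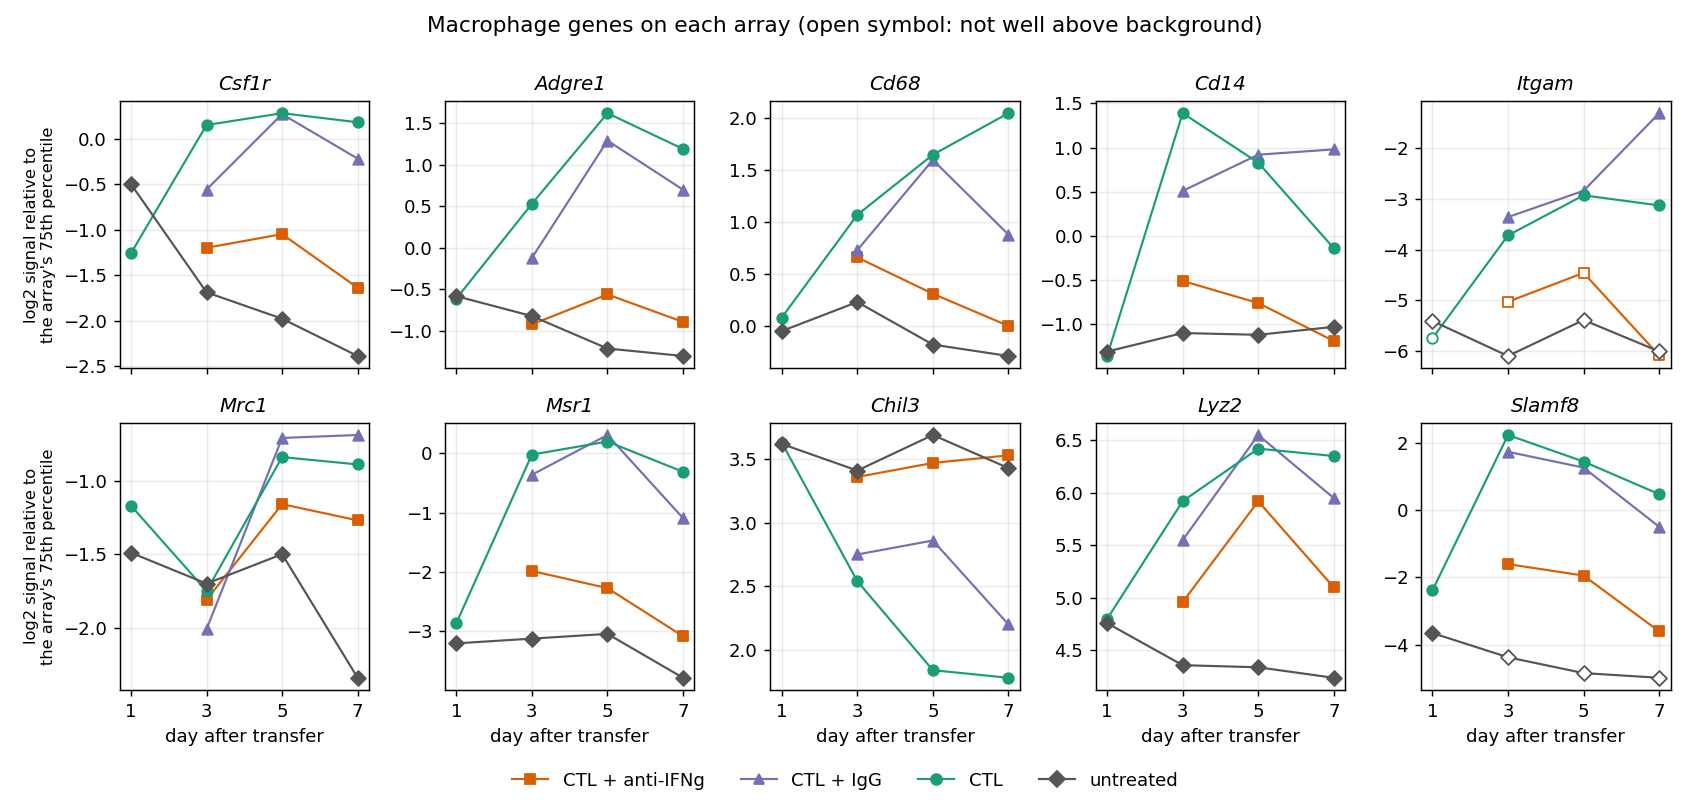
Level of each macrophage gene (log2 signal relative to the array's 75th percentile, vertical axis with its own scale per gene) against day after transfer. Points are single arrays of pooled tumours and colours are arms: in 8 panels the CTL and IgG lines run above the untreated line from day 3, in the Chil3 panel they run below it, and in the Mrc1 panel the arms meet on day 3.

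The lineage receptors come first. Csf1r encodes the receptor for the growth factors CSF-1 and IL-34. Its level was -1.20, -1.05 and -1.64 on days 3, 5 and 7 in CTL with anti-IFNg tumours, -0.56, 0.27 and -0.22 in CTL with IgG tumours, 0.15, 0.28 and 0.18 in CTL tumours, and -1.69, -1.98 and -2.39 in untreated tumours. The CTL arrays of these days lay within a narrow band. On this probe each later untreated array was lower than the one before it, starting from -0.50 on day 1. CTL tumours exceeded untreated tumours by 2.23 ± 0.212 (log2, SE, n = 3 days; 4.68-fold; limma adjusted p = 0.000426). Antibody tumours were below IgG tumours by a log2 change of -1.12 ± 0.212 (limma adjusted p = 0.0132), with no overlap of the arms. A second Csf1r probe gave 1.36 ± 0.215 and -0.90 ± 0.215 for the same comparisons, both past the threshold, and another was too dim to test. The second probe read -3.36, -3.03, -3.48 and -3.66 on the untreated arrays of days 1, 3, 5 and 7, so the steady fall from day 1 was not seen on it. In the first comparison the call was lost in the additive fit of 14 arrays, at 1.48 (adjusted p = 0.0624). In the second it was kept under 8 of 12 alternatives and was lost without day 5, at -1.03 (adjusted p = 0.195), and without day 7, at -0.98 (adjusted p = 0.0977).

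Adgre1 encodes F4/80, the surface receptor by which mouse macrophages are usually stained. Its level was -0.92, -0.56 and -0.89 in antibody tumours, -0.12, 1.29 and 0.70 in IgG tumours, 0.53, 1.62 and 1.19 in CTL tumours, and -0.82, -1.21 and -1.30 in untreated tumours. On day 3 the antibody array sat beside the untreated array, and in the CTL and IgG arms day 5 was highest. The change was 2.22 ± 0.303 (4.67-fold, limma adjusted p = 0.00195) for CTL against untreated tumours and -1.41 ± 0.303 (limma adjusted p = 0.0217) for antibody against IgG tumours. The changes of Adgre1 and Csf1r after CTL transfer differed by less than their standard errors. Without day 5 neither Adgre1 call held, with adjusted p of 0.0545 and 0.213, and without day 7 the antibody call was lost too (adjusted p = 0.141). The antibody call held under 7 of 12 alternatives. The probe lies at chr17:57168755-57168814.

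Csf1, the ligand of the Csf1r receptor, followed the same arms. It stood at -0.68, -0.84 and -0.69 in antibody tumours, 1.43, 0.75 and 0.07 in IgG tumours, 1.75, 0.90 and 0.34 in CTL tumours and -0.57, -0.67 and -0.58 in untreated tumours. The CTL and IgG levels were highest on day 3 and lowest on day 7, and the antibody arrays lay at or just below the untreated ones. Csf1 changed by 1.60 ± 0.290 for CTL against untreated tumours (limma adjusted p = 0.00624) and by -1.49 ± 0.290 for antibody against IgG tumours (limma adjusted p = 0.0153). It was the only gene called among the 4 measured in the list of CSF ligands and receptor chains.

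The lysosomal and endocytic genes were less alike. Cd68 encodes a glycoprotein of late endosomes and lysosomes, and its probe lies at chr11:69481007-69481066. Its level was 0.66, 0.31 and 0.00 in antibody tumours, 0.73, 1.60 and 0.88 in IgG tumours, 1.07, 1.65 and 2.05 in CTL tumours and 0.23, -0.18 and -0.29 in untreated tumours. The antibody and IgG arrays of day 3 were almost level, and the CTL arrays were higher on each later day. CTL tumours were higher by 1.67 ± 0.323 (3.18-fold, limma adjusted p = 0.00786). For antibody against IgG tumours the value was -0.75 ± 0.323, which did not pass (limma adjusted p = 0.168). Without day 5 or without day 7 the first call was lost too, with adjusted p of 0.108 and 0.0515. That call held under 9 of 12 alternatives.

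Lyz2 encodes lysozyme M, the bacteriolytic enzyme of macrophages and neutrophils whose promoter is widely used to drive Cre in myeloid cells. Its level was 4.96, 5.92 and 5.10 in antibody tumours, 5.55, 6.55 and 5.95 in IgG tumours, 5.92, 6.42 and 6.35 in CTL tumours and 4.36, 4.34 and 4.24 in untreated tumours. All antibody arrays were above all untreated arrays, but the change between these arms did not pass (1.01 ± 0.202, limma adjusted p = 0.191). The change was 1.92 ± 0.202 for CTL against untreated tumours (3.77-fold, limma adjusted p = 0.000662), and this call held under all 12 alternatives. For antibody against IgG tumours it was -0.69 ± 0.202 (limma adjusted p = 0.0625), negative on 3 of 3 days but not past the threshold, and under none of the 12 alternatives did it pass. The probe that the files call Lyz belongs by its accession to the neighbouring copy Lyz1. It gave 1.94 ± 0.224 and -0.68 ± 0.224 and followed Lyz2 with r = 0.998 over 14 arrays, so the signals of the copies (Lyz2 at chr10:116681504-116681563, Lyz1 at chr10:116692308-116692367) cannot be separated here.

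Msr1 encodes scavenger receptor A, which takes up modified lipoproteins and bacterial surface molecules, and its probe spans chr8:41104755-41106916. Its level was -1.98, -2.27 and -3.08 in antibody tumours, -0.36, 0.31 and -1.09 in IgG tumours, -0.02, 0.20 and -0.31 in CTL tumours and -3.12, -3.04 and -3.78 in untreated tumours. CTL and IgG arrays lay far above the others on every day. CTL tumours exceeded untreated tumours by 3.27 ± 0.2 (9.66-fold, limma adjusted p = 5.6e-05), and antibody tumours were below IgG tumours by a log2 change of -2.06 ± 0.2 (limma adjusted p = 0.00136). The other 2 probes of Msr1 gave 2.31 ± 0.176 and 2.56 ± 0.289 in the first comparison and -2.04 ± 0.176 and -1.58 ± 0.289 in the second. The first call held under all 12 alternatives, and the second was lost in the additive fit of 14 arrays (adjusted p = 0.063) and without day 5 (adjusted p = 0.0678). With normexp background correction both values were smaller, 2.09 and -1.44.

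Cd14 encodes the co-receptor that passes endotoxin to TLR4, and is also made by neutrophils. Its level was -0.51, -0.76 and -1.19 in antibody tumours, 0.51, 0.92 and 0.98 in IgG tumours, 1.39, 0.83 and -0.14 in CTL tumours and -1.10, -1.12 and -1.03 in untreated tumours. In CTL tumours it was highest on day 3 and lowest on day 7, and in IgG tumours day 7 was the highest. The change was 1.78 ± 0.323 for CTL against untreated tumours (3.43-fold, limma adjusted p = 0.00633) and -1.62 ± 0.323 for antibody against IgG tumours (limma adjusted p = 0.0165). Without day 3 the first value was 1.42 (adjusted p = 0.056), and without day 5 neither call held, with adjusted p of 0.125 and 0.230. Both calls were also lost in the additive fit of 14 arrays (adjusted p of 0.0526 and 0.0656). With only the arms compared they were lost too (adjusted p of 0.0682 and 0.0529). Its partner Tlr4 went the other way: it stood at -1.44, -1.25 and -1.26 in antibody tumours, -1.95, -1.96 and -1.95 in IgG tumours, -2.01, -2.31 and -1.85 in CTL tumours and -1.19, -1.38 and -1.18 in untreated tumours. Tlr4 changed by -0.81 ± 0.119 for CTL against untreated tumours (limma adjusted p = 0.00276) and by 0.64 ± 0.119 for antibody against IgG tumours (limma adjusted p = 0.0128).

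Itgam encodes CD11b, the integrin chain that pairs with the Itgb2 product to form complement receptor 3 on monocytes, macrophages, neutrophils and natural killer cells. Its probe (chr7:127909109-127909168) was well above background on 6 arrays, those of CTL and IgG tumours on days 3, 5 and 7, and passed the filter through them alone. Its level was -5.03, -4.46 and -6.09 in antibody tumours, -3.36, -2.84 and -1.31 in IgG tumours, -3.72, -2.93 and -3.13 in CTL tumours and -6.10, -5.39 and -6.01 in untreated tumours. Antibody and untreated arrays hold no measured level, so the fold changes are bounds. For such a bound, each dim array was given the higher of its own signal and the lowest signal that was well above background on it. The bounds given here for Itgam, Slamf8 and Ccr2 are ratios of means without an error. They hold for the processed signal only, not under other background corrections. CTL tumours were at least 2.2-fold higher than untreated tumours (fitted log2 change 2.57 ± 0.536, limma adjusted p = 0.0104). Antibody tumours were at least 3.55-fold lower than IgG tumours (fitted log2 change -2.69 ± 0.536, limma adjusted p = 0.0166). Because the filter kept Itgam through the arms in which it is bright, these p-values are no independent support; in the fit with no filter on dim probes they were 0.0243 and 0.037.

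One IgG array stood apart for Itgam, that of day 7. Summed neutrophil markers on it were 50.3 times the 75th percentile, against 1.33 and 2.61 on the other IgG arrays, 0.299 to 0.687 on antibody arrays, 1.35 to 6.97 on CTL arrays and 0.290 to 1.02 on untreated arrays of days 3, 5 and 7. Of the 12 neutrophil markers 5 passed the filter, and no probe is named Ly6g. Without day 7 the antibody change of Itgam was -1.64 (adjusted p = 0.0114) and that of Cd14 was -1.35 (adjusted p = 0.044). The part of neutrophil transcripts in the level of Itgam on day 7 was not tested. The second Itgam probe gave 3.34 ± 0.531 and -2.62 ± 0.531 and put the IgG array of day 7 at -2.81, level with the IgG array of day 5. Without day 3 and without day 5 the CTL call was lost (adjusted p of 0.0899 and 0.109), as was the antibody call (0.102 and 0.148). The CTL call held under 9 of 12 alternatives and the antibody call under 7 of 12. With normexp background correction the values were 1.22 (adjusted p = 0.0284) and -1.04 (adjusted p = 0.153).

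**Figure D2:**
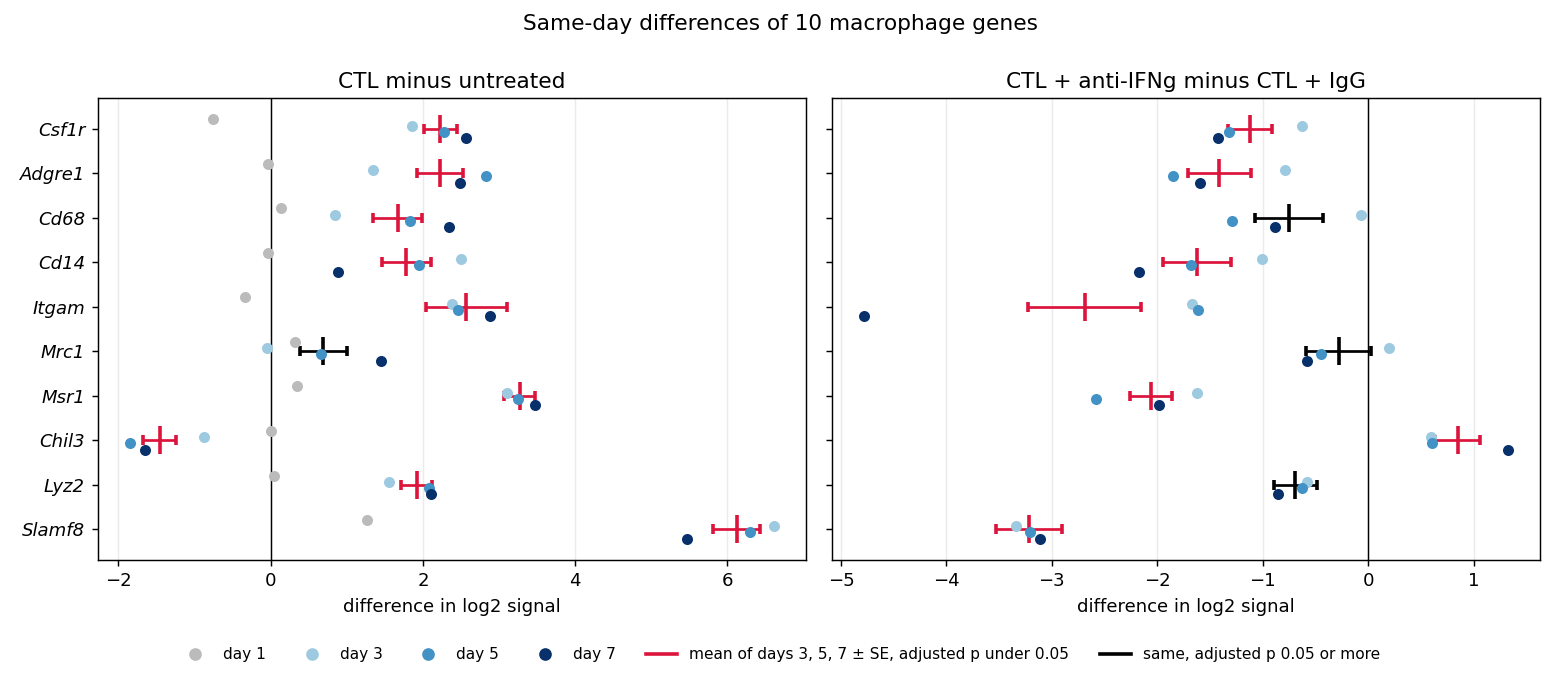
Same-day differences in log2 signal (horizontal axis) for the 10 genes (rows), CTL minus untreated on the left and CTL with anti-IFNg minus CTL with IgG on the right. Dots are single days and bars are the fitted mean of days 3, 5 and 7 with its standard error, red where the adjusted p is under 0.05: the day 1 dots of CTL minus untreated lie within 1 of zero except for Slamf8, and the day 7 dot of Itgam on the right stands at -4.78.

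Slamf8 encodes a surface receptor of the SLAM family on macrophages and dendritic cells, and its probe lies at chr1:174418611-174418670. Its level was -1.61, -1.95 and -3.61 in antibody tumours, 1.73, 1.26 and -0.50 in IgG tumours, 2.23, 1.44 and 0.47 in CTL tumours and -4.38, -4.85 and -4.99 in untreated tumours. The untreated arrays of days 3, 5 and 7 were not well above background, and the 3 arms with CTLs were lower on day 7 than on day 3. In the processed signal, CTL tumours were at least 54.3-fold higher than untreated tumours (fitted log2 change 6.12 ± 0.312, limma adjusted p = 2.54e-05). Antibody tumours were 9.31-fold lower than IgG tumours (-3.22 ± 0.312, limma adjusted p = 0.00136). The CTL call held under all 12 alternatives. Its fitted log2 change was 3.60 under normexp background correction, below the bound of 54.3-fold. The antibody call was lost in the additive fit of 14 arrays (adjusted p = 0.0662) and without day 5 (adjusted p = 0.0678). The 250 bases before the start of Slamf8 are printed because this gene had the largest fitted change of the 10 in CTL against untreated tumours. They lie on the minus strand at chr1:172590569-172590818 (RefSeq, GRCm38.p6), and capitals mark a match to the core of an interferon-stimulated response element, GAAANNGAAA on either strand, 15 bases before the start.
Slamf8: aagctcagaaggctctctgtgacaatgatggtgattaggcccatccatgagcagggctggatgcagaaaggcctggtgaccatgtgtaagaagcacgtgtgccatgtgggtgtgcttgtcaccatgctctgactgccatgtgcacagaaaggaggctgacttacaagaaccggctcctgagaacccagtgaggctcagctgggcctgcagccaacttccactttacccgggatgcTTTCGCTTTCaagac

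That element was found in 2.98% of 32851 promoters of the same length. Of the 10 genes, 6 have a promoter that was searched, those of Slamf8, Mrc1, Chil3, Itgam, Lyz2 and Cd68, and Slamf8 alone of these held the element. A gamma-activated site, TTCNNNGAA, which reads the same on both strands, was in 7.02% of all promoters and, of the 6, in Chil3 alone. The core bound by the myeloid factor PU.1, GAGGAA on either strand, was in 23.25% of all promoters and in those of Cd68, Itgam and Mrc1. A match describes the letters only.

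Of the 2 polarisation markers, Chil3 changed in the opposite direction to the 8 genes described above in both main comparisons. Mrc1 had the same sign as those 8 but did not pass in either comparison. In antibody against IgG tumours, Cd68 and Lyz2 did not pass either. A missed threshold does not show that Mrc1 differed from the 8. Mrc1 encodes the mannose receptor, CD206, and its probe lies at chr2:14249431-14249491. Its level was -1.81, -1.16 and -1.27 in antibody tumours, -2.01, -0.71 and -0.69 in IgG tumours, -1.75, -0.84 and -0.89 in CTL tumours and -1.70, -1.50 and -2.34 in untreated tumours. On day 3 the 4 arms lay within 0.31 of each other, and the arms overlapped in both comparisons. The change was 0.69 ± 0.307 for CTL against untreated tumours (limma adjusted p = 0.121) and -0.28 ± 0.307 for antibody against IgG tumours (limma adjusted p = 0.577). Same-day differences between CTL and untreated tumours were -0.05, 0.66 and 1.45 on days 3, 5 and 7. With normexp background correction the first value was 0.76 and passed (adjusted p = 0.0383).

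Chil3 encodes Ym1, a secreted chitinase-like protein of alternatively activated macrophages and of neutrophils in the mouse. Its level was 3.36, 3.47 and 3.53 in antibody tumours, 2.75, 2.86 and 2.20 in IgG tumours, 2.54, 1.84 and 1.78 in CTL tumours and 3.41, 3.69 and 3.43 in untreated tumours. Antibody arrays fell inside or next to the range of the untreated arrays, and all CTL and IgG arrays were below both. The change was -1.46 ± 0.213 for CTL against untreated tumours (2.75-fold lower, limma adjusted p = 0.00266) and 0.85 ± 0.213 for antibody against IgG tumours (1.8-fold higher, limma adjusted p = 0.0381). The first call held under 10 of 12 alternatives and was lost without day 5, at -1.26 (adjusted p = 0.0758), and with only the arms compared (adjusted p = 0.0527). The second call held under 6 of 12 alternatives, with adjusted p from 0.0307 to 0.203. Leaving out any day ended the second call, with adjusted p of 0.095, 0.201 and 0.203 without days 3, 5 and 7. Chil3 has 1 probe, at chr3:106275623-106275682 in mm8. A probe of its near copy Chil4 (Ym2), whose listed accessions include that of Chil3, gave 2.11 ± 0.953 (limma adjusted p = 0.124) and -2.17 ± 0.953 (limma adjusted p = 0.172), opposite in sign to the Chil3 probe and not past the threshold. The Chil4 probe was well above background on 1 antibody array, 3 IgG arrays, 2 CTL arrays and 0 untreated arrays of days 3, 5 and 7, so its untreated level is a background reading and its fitted changes are not measured folds. On the arrays, the Chil4 probe stood at -2.59, -4.56 and -6.74 in antibody tumours, -2.03, -1.71 and -3.61 in IgG tumours, -2.49, -3.46 and -3.13 in CTL tumours and -6.40, -4.63 and -4.38 in untreated tumours. The bases before the start of Chil3 (RefSeq, GRCm38.p6, minus strand, chr3:106167565-106167814) are printed because it moved against the rest; capitals mark the gamma-activated site, 172 bases before the start.
Chil3: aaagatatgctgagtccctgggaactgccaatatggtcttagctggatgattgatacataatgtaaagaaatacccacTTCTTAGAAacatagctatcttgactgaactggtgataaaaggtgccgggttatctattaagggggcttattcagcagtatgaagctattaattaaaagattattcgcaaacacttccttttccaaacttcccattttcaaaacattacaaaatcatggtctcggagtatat
The Chil4 promoter holds the same site 200 bases before its start. Over 222 bases compared at that shift of 28, with no gaps allowed, 67.6% of bases matched. A single inserted or lost base puts all later bases out of register, so this value understates how alike the copies are.

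The control antibody itself was compared with CTLs alone. None of the 10 genes passed between CTL with IgG and CTL tumours (limma; 1 gene of 10, Chil3, at an unadjusted p under 0.05), where 0.0117% of all genes were called and 3207 had an unadjusted p under 0.05. The changes ran from -0.55 ± 0.312 for Slamf8 to 0.76 ± 0.536 for Itgam, and the arms overlapped for all 10 genes. How many of all genes overlapped is not given here, so the overlap cannot be read as particular to the 10. Missing the threshold does not show that the arms were alike.

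The antibody arm was also set against untreated tumours. Slamf8 was at least 3.98-fold higher in antibody tumours than in untreated tumours (fitted log2 change 2.35 ± 0.312, limma adjusted p = 0.0467), the 1 gene of the 10 to pass in a comparison where 0.159% of all genes were called, 0.153% higher and 0.00587% lower. That call was lost under 7 of 12 alternatives, with adjusted p up to 1, among them the fits without day 3 (adjusted p = 0.54) and without day 5 (adjusted p = 0.687). With normexp background correction the fitted log2 change of Slamf8 was 0.84, below the bound of 3.98-fold. Lyz2 gave 1.01 ± 0.202 (adjusted p = 0.191), Msr1 0.87 ± 0.2 (adjusted p = 0.309) and Csf1r 0.73 ± 0.212 (adjusted p = 0.509) in the limma fit, each positive on 3 of 3 days. Chil3 gave -0.06 ± 0.213. This comparison shares its untreated arrays with the CTL comparison and its antibody arrays with the comparison of antibody and IgG, so its values are given beside theirs and not as separate support.

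On day 1 the CTL and untreated arrays were close for most of the genes. Same-day differences ran from -0.76 for Csf1r to 1.27 for Slamf8, with a median of 0.02, against medians of 1.71, 2.17 and 2.41 on days 3, 5 and 7. The CTL effect of days 3, 5 and 7 exceeded that of day 1 for Slamf8 by 4.85 ± 0.623 (limma adjusted p = 0.0146), for Csf1r by 2.98 ± 0.423 (limma adjusted p = 0.022) and for Msr1 by 2.93 ± 0.400 (limma adjusted p = 0.0183). Of all genes, 1.02% were called in this test, which rests on 1 pair of day 1 arrays. The other 7 genes did not pass. The second Csf1r probe gave 1.04 ± 0.429 (limma adjusted p = 0.349 over probes), so the Csf1r value depends on the probe. Without day 3 or without day 5, 0 of the 10 genes passed, and without day 7 Slamf8 and Itgam passed. The number of all genes called also changed in these fits and is given in the last section. These counts therefore say little about the 10 genes themselves.

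Over the 14 arrays the 8 genes other than Chil3 and Mrc1 were correlated with each other at r from 0.76 to 0.969 over 28 pairs. Mrc1 ran at 0.32 to 0.68 with those 8, and Chil3 at -0.89 to -0.47 with the other 9. These correlations describe the arms as much as the genes, since arrays of the same arm share a treatment. After arm means were taken out over the 12 arrays of days 3, 5 and 7, the 28 pairs had a median r of 0.34, from -0.29 to 0.82. Chil3 then had a median r of -0.11 with the other 9, from -0.58 to 0.58, and Mrc1 one of 0.48, from -0.55 to 0.83. The inverse pattern of Chil3 therefore lay between arms, and within arms its r took both signs.

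**Figure D3:**
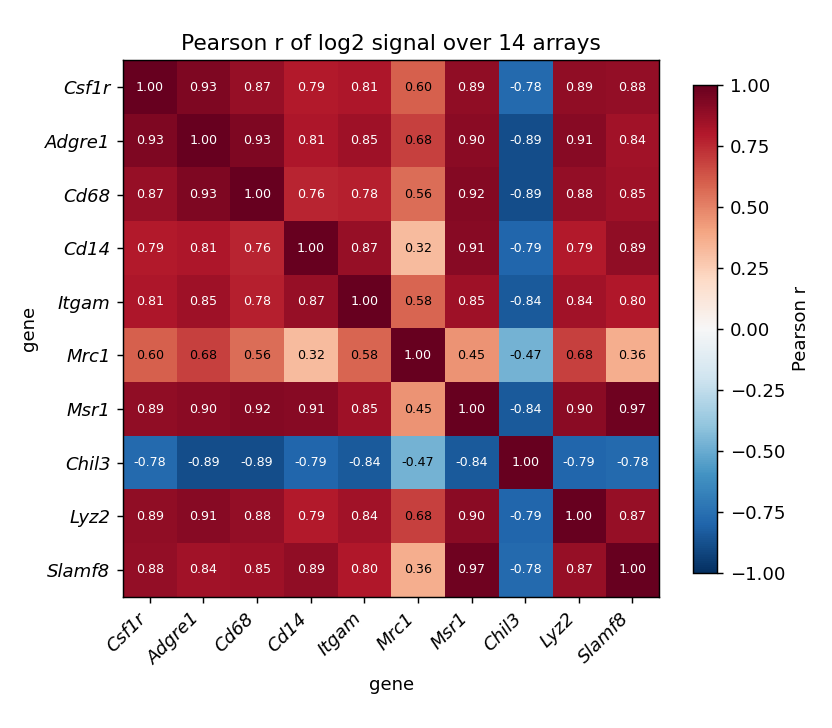
Pearson correlation of log2 signal over 14 arrays for each pair of the 10 genes (rows and columns, colour scale from -1 to 1). The Chil3 row is negative throughout, from -0.89 to -0.47, and the Mrc1 row holds the palest positive values.

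The genes whose levels followed each member most closely over the 14 arrays differed between members. Csf1r ran with C1qa (r = 0.959) and C1qc (r = 0.946), chains of complement C1q, and with Ctss, cathepsin S (r = 0.945). Adgre1 ran with Ebi3, a cytokine subunit (r = 0.99), C1qc (r = 0.987) and Clec4b1 (r = 0.983). Msr1 ran with the inhibitory receptor gene Lilrb4a (r = 0.996), Bst1 (r = 0.993) and the class II gene H2-Aa (r = 0.992). Slamf8 ran with Clec7a, which encodes the fungal receptor dectin-1 (r = 0.989), with Ptprc, which encodes the leukocyte antigen CD45 (r = 0.986), and with Camk4 (r = 0.985). Cd68 ran with Lgals3, which encodes galectin-3 (r = 0.974), and with Galnt6 and Slc11a1. Cd14 ran with Hcar2 (r = 0.975), Srgn and Fpr2, and Itgam with Cryab (r = 0.946), the chemokine gene Ccl3 and the granulocyte colony-stimulating factor receptor gene Csf3r. Lyz2 ran with its copy Lyz1, then with Lrmp (r = 0.965) and Ptpn7. For Mrc1 the highest r was that of Smyd3, at 0.851. Chil3 ran with Ap3s2 (r = 0.964), Khdrbs3 and Gkap1, which belong to none of the leukocyte lists used here.

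Other macrophage genes were counted from lists chosen with earlier results of these data known. Of 13 measured genes of classical activation, 11 rose and 0 fell in CTL against untreated tumours, with a median of 3.23, and 10 were lower in antibody against IgG tumours, with a median of -2.59. Irf5, a transcription factor of inflammatory macrophages, changed by 3.03 ± 0.176 and -1.89 ± 0.176, and Ccl5, a chemokine also made by T cells, by 3.58 ± 0.329 and -2.59 ± 0.329, all past the threshold. Nos2, the inducible nitric oxide synthase gene, was among 7 genes of that list below the filter on dim probes. Of 17 measured genes of alternative activation, 8 rose and 0 fell after CTLs, with a median of 1.5, and 4 were lower with the antibody, with a median of -0.97. The 8 included Clec7a at 4.55 ± 0.329, Il4ra, the IL-4 receptor chain, at 1.74 ± 0.141, and Arg1, arginase 1, at 2.90 ± 0.587 (limma adjusted p = 0.00927). With the antibody, Tgm2, transglutaminase 2, changed by -3.39 ± 0.311 and Il4ra by -1.27 ± 0.141, whereas Arg1 gave -1.91 ± 0.587 and did not pass (limma adjusted p = 0.0713). Arg1 stood at 0.46, -0.55 and -2.48 in antibody tumours, 1.08, 1.74 and 0.32 in IgG tumours, 0.44, 1.36 and 0.64 in CTL tumours and -2.82, -1.37 and -2.07 in untreated tumours, so that on day 3 the antibody array was level with the CTL array.

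Of 9 transcription factors of myeloid cells, 7 rose after CTLs and 5 were lower with the antibody. Irf8, which directs monocyte and dendritic cell development and is induced by interferon gamma, changed by 5.45 ± 0.553 and -4.56 ± 0.553. Nr1h3, the liver X receptor alpha gene, rose by 3.08 ± 0.311, and Cebpb was lower by -2.08 ± 0.277 with the antibody. Of 6 measured genes of the SLAM family besides Slamf8, 5 rose and 4 were lower with the antibody, among them Cd48 at 2.81 ± 0.213 and -1.28 ± 0.213. Of 10 genes typical of tumour macrophages, 5 rose and 4 were lower, led by Aif1, which encodes IBA1, at 3.85 ± 0.273 and -2.89 ± 0.273, and Tyrobp, the DAP12 adaptor gene, at 2.62 ± 0.196 and -1.68 ± 0.196. Of 12 lysosomal genes 4 rose and 2 were lower with the antibody, with medians of 0.36 and -0.06. Ctss changed by 3.96 ± 0.267 and -1.62 ± 0.267 and Lgmn, legumain, by 1.08 ± 0.101 and -0.64 ± 0.101.

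Receptors for microbial products and for lipids were mixed. Of 8 measured, 5 rose and 2 fell after CTLs, and 2 were higher and 2 lower with the antibody. Tlr2, a receptor for bacterial lipoproteins, changed by 2.45 ± 0.160 and -1.15 ± 0.160, while Scarb1, the high-density lipoprotein receptor gene, changed by -0.84 ± 0.123 and 0.80 ± 0.123. Of 6 integrin genes and their ligand, 4 rose and 2 fell, and 2 were higher and 3 lower with the antibody. Itgb2, the partner chain of Itgam, changed by 1.69 ± 0.183 and -0.95 ± 0.183, and Icam1, a ligand of that pair, by 2.84 ± 0.229 and -2.06 ± 0.229. Itga4, an integrin chain that binds VCAM-1, was higher with the antibody by 1.41 ± 0.117.

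**Figure D4:**
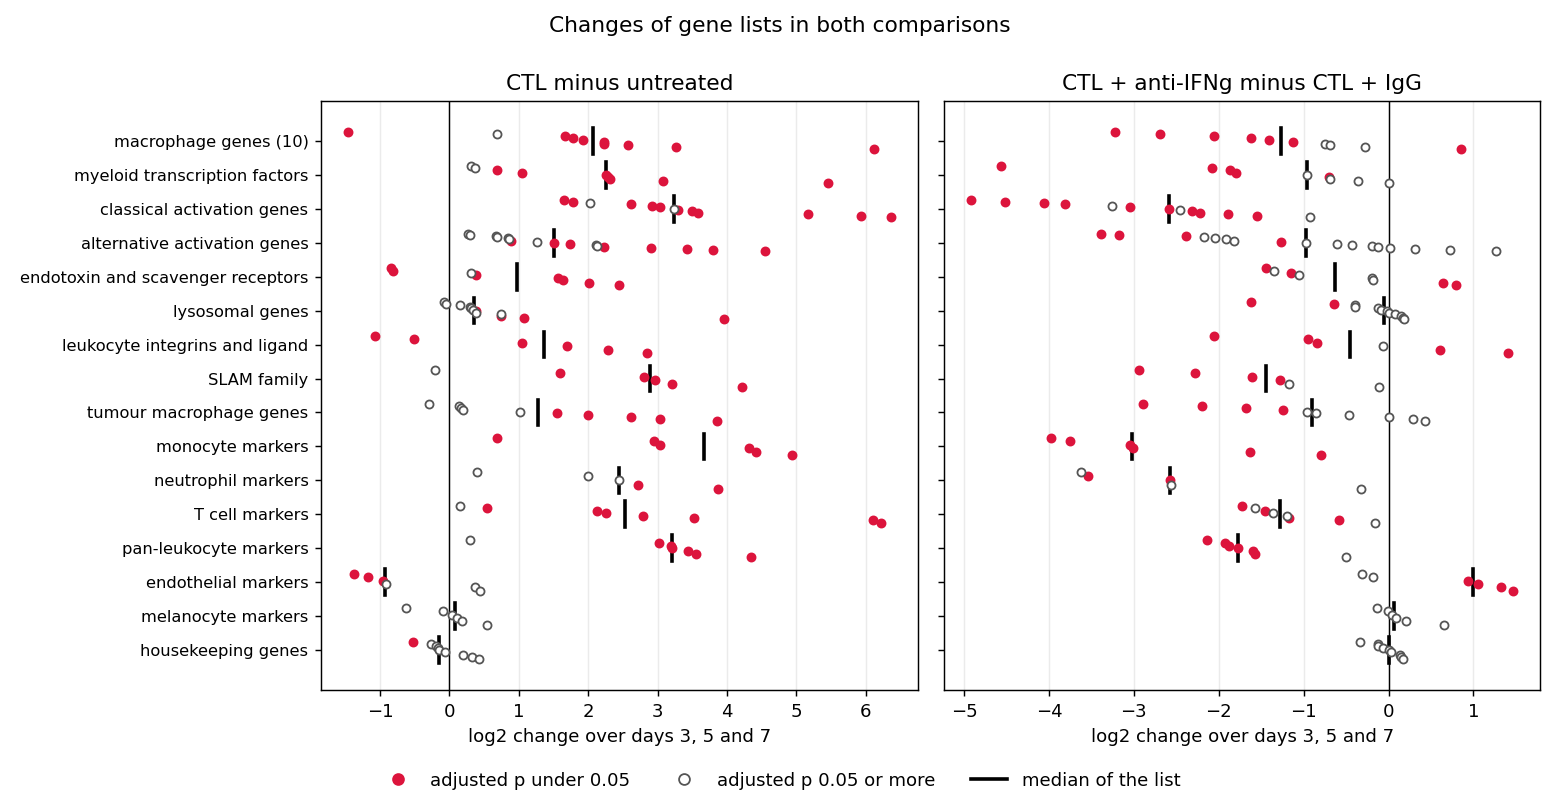
Log2 change over days 3, 5 and 7 (horizontal axis) of each measured gene of 16 lists (rows), CTL minus untreated on the left and CTL with anti-IFNg minus CTL with IgG on the right. Filled dots have an adjusted p under 0.05 and black bars are list medians: the classical activation median is 3.23 on the left and -2.59 on the right, and the melanocyte and housekeeping medians lie near 0 in both.

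Genes of leukocytes as a whole, and of monocytes and T cells, moved with these genes. The measured neutrophil and natural killer markers had the same signs, while lists of other cell types were mixed. Of 7 pan-leukocyte markers, 6 rose after CTLs, with a median of 3.21, and 6 were lower with the antibody, with a median of -1.77. Ptprc stood at -1.49, -1.24 and -2.35 in antibody tumours, 0.12, 0.51 and -0.39 in IgG tumours, 0.77, 0.49 and 0.05 in CTL tumours and -3.15, -3.02 and -3.19 in untreated tumours. It changed by 3.56 ± 0.195 and -1.77 ± 0.195, more after CTLs than 9 of the 10 macrophage genes in size, with Slamf8 above it, and its log2 change of 1.43 ± 0.195 between antibody and untreated tumours also passed (limma adjusted p = 0.0489). Summed pan-leukocyte levels were 40.5 to 45.3 in antibody tumours, 63.7 to 92.4 in IgG tumours, 62.9 to 94.3 in CTL tumours and 37.7 to 41.1 in untreated tumours.

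Of 6 monocyte markers, all 6 rose after CTLs and all 6 were lower with the antibody. Ccr2, the chemokine receptor by which monocytes leave the marrow, was at least 4.81-fold higher in CTL than in untreated tumours and changed by -1.63 ± 0.276 with the antibody. Summed monocyte levels were 1.92 to 3.95 in antibody tumours, 10.6 to 33.8 in IgG tumours, 13 to 47.8 in CTL tumours and 1.54 to 2.75 in untreated tumours. Of 8 T cell markers, 7 rose and 4 were lower with the antibody, with sums of 1.59 to 2.81 in antibody tumours, 3.09 to 7.12 in IgG tumours, 4.05 to 8.91 in CTL tumours and 0.851 to 1.16 in untreated tumours. Of 5 measured neutrophil markers, 2 rose after CTLs and 2 were lower with the antibody. All 5 had changes above 0 in the first comparison (median 2.44) and below 0 in the second (median -2.58). Of 5 measured dendritic cell markers 2 rose and 1 was lower, and both measured natural killer markers rose and were lower with the antibody. Of 6 endothelial markers 3 fell after CTLs and 4 were higher with the antibody. Of 4 measured fibroblast markers 1 rose and 0 were lower with the antibody, and of 3 measured B cell markers 1 rose and 1 was lower. The part of these cell types in the changes of the macrophage genes was not tested.

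**Figure D5:**
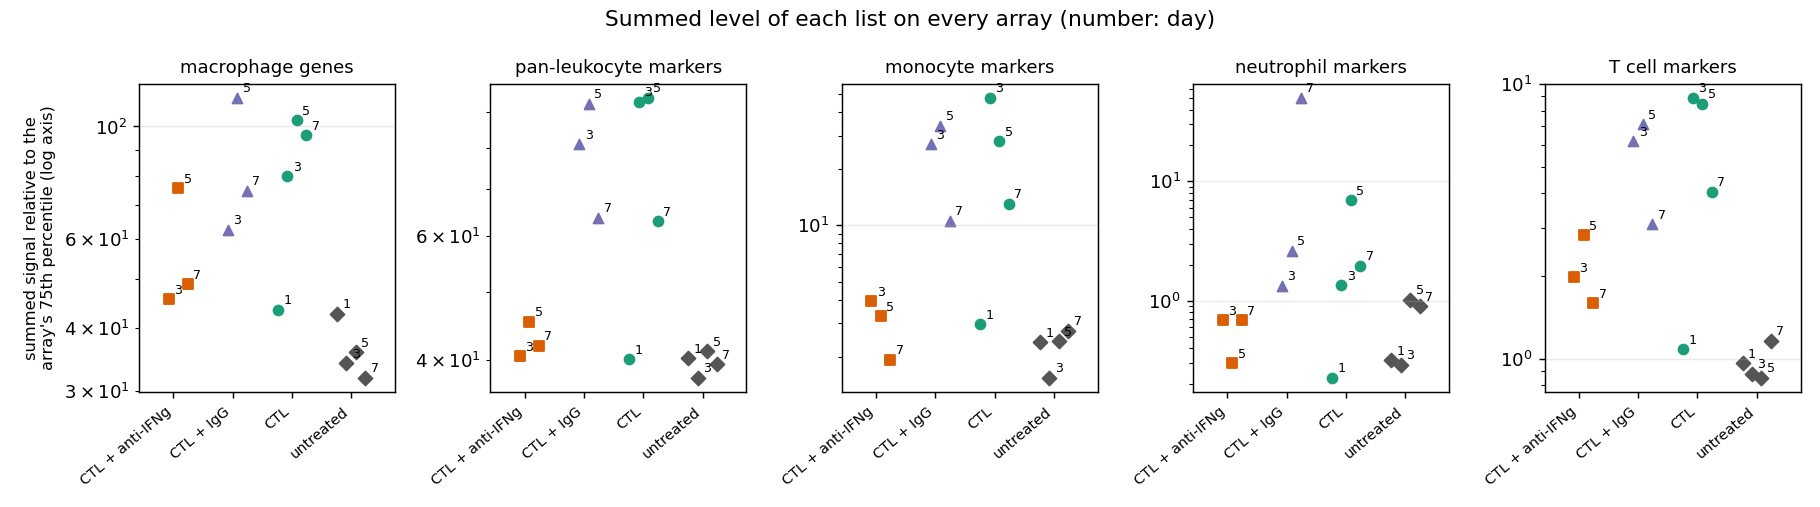
Summed signal of the 10 macrophage genes and of 4 marker lists, relative to the array's 75th percentile (vertical log axis, own scale per panel), by arm, with 1 point per array and its day beside it. Pan-leukocyte, monocyte and T cell sums of CTL and IgG tumours on days 3, 5 and 7 lie above those of antibody and untreated tumours, and the neutrophil sum of the IgG array of day 7 stands at 50.3.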

How the data were processed

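RNA of pooled tumours was measured on 14 Agilent one-colour arrays. The submitters' processing notes name Agilent Feature Extraction 9.5 (9.5.3.1 in the file headers). The intensity used is the processed signal of each spot as deposited, linear and after the scanner program's own background subtraction, per the file headers. A table of log2 values deposited by the authors correlated with the values used here at r = 1 on every array and served as an alternative. Their column medians ran from -3.54 to -3.14, and no scale or centring stayed unknown.

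The log2 processed signal minus each array's 75th percentile over 43379 non-control spots was averaged per probe without outlier spots. Probes well above background on at least 3 arrays were kept, and the brightest per gene was used. Of 41174 probes, 24375 were named through a RefSeq accession and 16799 kept the name of the file. Probe coordinates are mm8. Genes were tested with limma 3.58.1 (R 4.3.3, lmFit and eBayes, two-sided), with arm and day as terms, over the 12 arrays of days 3, 5 and 7; the day 1 test used all 14. Day equals slide, so the day term pairs the arms: of 18 same-day pairs, 12 had deviations correlated over 0.1 across genes, with a median r of 0.129. Errors of changes are standard errors. The number of arrays limits precision. The fit alone was tried on simulated log2 values with independent noise on each array. These held no day effect and no background floor, so the trial does not cover the day pairing or dim probes.

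Named were all 10 genes, the 2 genes of smallest p that passed in each list described, 6 further measured genes (Arg1, Ptprc, Csf1, Itgb2, Tlr4, Ccr2), and 3 most similar genes per member. The copies Lyz1 and Chil4 were added after values were seen. Members, lists and the 12-array fit were chosen with earlier results of these data known. Promoters are RefSeq sequences (GRCm38.p6). Alternatives were the additive 14-array fit, no day term, only the arms compared, normexp (offset 50), quantile normalization, the authors' table, no dim-probe filter, a filter of 6 arrays, the mean of probes, and each day left out.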

Additional observations from a re-analysis of the deposited data

Results flagged for a closer look

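Among 20 sets of 4 arrays (10 genes in the CTL and untreated arms), the array farthest from the rest exceeded Dixon's 95% limit for 2: Csf1r in CTL tumours, with day 1 at -1.26, and Msr1 in CTL tumours, with day 1 at -2.86. Chance alone gives about 1 in 20 such sets. In both, the far array is the day 1 array.

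The CTL effect of days 3, 5 and 7 differed from that of day 1 by 2.98 for Csf1r, 2.93 for Msr1 and 4.85 for Slamf8. These values come from the limma test of the difference itself described above, which rests on 1 pair of day 1 arrays. The second Csf1r probe gave 1.04, so the Csf1r value depends on the probe.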

How the results depend on the processing

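In CTL against untreated tumours and in antibody against IgG tumours, all 10 genes kept their sign under all 12 alternatives; 105 of the single-gene results in the first comparison and 93 in the second also kept their side of the threshold. The fit without the replicate block (no day term) left 9 and 7 of the 10 genes past the threshold, with 4947 and 1723 genes in all, and changed no call among the 10 in these 2 comparisons. Genes past the threshold in the first comparison (5363) were 1837 in the additive 14-array fit, 836 with the arms compared alone, 3296 with no dim-probe filter and 1098, 660 and 5111 without days 3, 5 and 7; of the 10 genes, 4 to 8 passed with a day left out, 6 with 14 arrays or with the arms alone, and 9 with no filter. In the second (2136) they were 2 in the 14-array fit, 911 with the arms alone, 645 with normexp and 1144 with no filter, and 398, 50 and 1376 without days 3, 5 and 7; of the 10 genes, 0 to 5 passed with a day left out, 0 in the 14-array fit, 2 with the arms alone, 6 with normexp and 5 with no filter. For IgG against CTL alone (2 genes) they were 4 in the 14-array fit, 4 with no replicate block, 0 with the arms alone, 0 with normexp, 1 with the filter of 6 arrays, 3 with quantile normalization and 0 to 2 with a day left out. For antibody against untreated tumours (27 genes) they were 0 in the 14-array fit, 0 with no replicate block, 0 with the arms alone, 2 with normexp, 10 with no filter and 1 to 18 with a day left out, and Slamf8 was lost in the first 5 of these fits, with 0 to 1 of the 10 genes with a day left out. For the day 1 test (173 genes) they were 1517 with no replicate block, 43 with normexp and 4 to 295 with a day left out, with 5, 1 and 0 to 2 of the 10 genes, and 2 with the mean of probes. Signs turned only for values that never passed. Between IgG and CTL alone these were Msr1 0.03, Lyz2 0.02 and Slamf8 0.05 (14 arrays), Itgam -0.24, Mrc1 -0.27 and Lyz2 0.09 (normexp), Mrc1 -0.03 (without day 5), and Cd14 -0.39 and Mrc1 -0.07 (without day 7). Between antibody and untreated tumours they were Chil3 0.12 (14 arrays), Itgam -0.06 (normexp) and Chil3 0.02 (without day 5), and in the day 1 test Mrc1 -0.01 (without day 7). The cause was not tested. With no dim-probe filter the median of all genes moved from -0.10 to 0.15 in the CTL comparison, and with normexp to 0.08. Dim probes such as Itgam carry bounds, and 1 array per arm and day leaves single-mouse spread unmeasured.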
